A study of Mus musculus with 6 samples.

Results

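The genes of fatty acid and triglyceride synthesis were followed in brown fat of wild-type and ADCY3∆AT mice. They were 36 genes taken by name, of the 54385 rows of the deposited count table, and every one matched a single row. They comprise 3 regulators (Srebf1, Mlxipl, Thrsp), 5 enzymes that make palmitate from acetyl units, 5 desaturases, 8 genes of chain elongation and 15 genes of esterification into glycerolipids.

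Polyadenylated RNA was sequenced from 3 libraries of C57BL/6N wild type (WT) and 3 of C57BL/6N ADCY3∆AT, a knockout of a truncated form of adenylyl cyclase 3 (Adcy3-AT). All mice were 20 weeks old and ate chow, and the sample labels name the tissue as interscapular brown fat, although the design text of the series says inguinal. The sources used here give neither the cells that carry the deletion nor whether each library came from its own mouse. The p-values thus weigh the genotype difference against the spread between these libraries, which may be technical. The comparison asks what loss of the truncated form does to brown fat RNA, and here what it does to lipid synthesis genes.

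Fatty acids are built in the cytosol from acetyl-CoA, which ATP citrate lyase (Acly) makes from citrate and Acss2 from acetate. Acetyl-CoA carboxylase makes malonyl-CoA, fatty acid synthase (Fasn) joins the units into palmitate, and elongases and desaturases remodel the product. Acyl chains are then placed on glycerol 3-phosphate in steps by the GPAT, AGPAT, lipin and DGAT enzymes. Srebf1 encodes SREBP-1, a membrane-bound factor that is cut to release an activator of these genes, and Mlxipl encodes ChREBP, a factor that responds to sugar. Thrsp encodes Spot 14, a small protein tied to lipogenesis. Brown fat is known for both high fatty acid synthesis and high fatty acid oxidation.

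Library totals ran from 13758492 to 19592156 estimated counts. Levels are given as CPM, the share of a library's counts scaled to a common total. A row whose identifier ends in the digits of the Adcy3 identifier but has not the Ensembl form, and which the table does not name, held 118 to 215 CPM in WT and 0 to 1.27 CPM in ADCY3∆AT, where the 2 libraries at 0 allow up to 0.199 and 0.152 CPM. Adcy3 itself held 208 ± 40.7 CPM (SD, n = 3) in WT and 201 ± 36.5 CPM in ADCY3∆AT. Markers of adipocytes of any kind (6 genes) summed to 11372 to 13529 CPM in WT and 10779 to 11443 CPM in ADCY3∆AT, and the 3 tools used (edgeR, limma-voom and DESeq2) gave 0 calls of 6, with 0 at an unadjusted p under 0.05. Markers of brown adipocytes, a list that holds the member Elovl3, summed to 6802 to 8425 CPM in WT and 7021 to 7768 CPM in ADCY3∆AT, with 0 calls of 8 from edgeR and limma-voom, 1 from DESeq2 and 1 at an unadjusted p under 0.05. That gene was Ppargc1a, a coactivator of mitochondrial genes, at 22.2, 21.8 and 13.6 CPM in WT and 26.2, 41.2 and 47.9 CPM in ADCY3∆AT, groups that did not overlap (log2 1.01, edgeR adjusted p = 0.0609). Skeletal muscle markers (12 genes) summed to 66.6, 161 and 749 CPM in WT replicates 1, 2 and 3 and to 46.3 to 48.6 CPM in ADCY3∆AT, and of the 10 tested 7 were lower in the knockout with edgeR, 9 with DESeq2 and 0 with limma-voom. White adipocyte markers (6 genes) summed to 48.4 to 147 CPM in WT and 32.2 to 78.0 CPM in ADCY3∆AT, and of the 4 tested edgeR called Lep, lower in ADCY3∆AT, limma-voom called 0, and DESeq2 called 1 lower and 1 higher. In replicates 1, 2 and 3, Lep held 31.7, 19.6 and 62.5 CPM in WT and 7.49, 4.98 and 11.4 CPM in ADCY3∆AT. Its log2 change was -2.24 (edgeR adjusted p = 0.0312). The marker that DESeq2 called higher was Nnat, at 4.58 to 8.17 CPM in WT and 8.45 to 18.5 CPM in ADCY3∆AT (log2 0.97, edgeR adjusted p = 0.112). Hoxc9 and Hoxc10, markers of white depots, were at most 0.253 and 0.110 CPM in any library. In bulk tissue, fewer cells of a type and less RNA per cell cannot be told apart.

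Srebf1 carried the largest change among the tested members, and its start regions are shown beside that of Fasn, which did not pass the test. The gene lies on chromosome 11 from 60199089 to 60222581, on the minus strand of GRCm38. RefSeq places 3 transcription starts in it, at positions 60222581, 60220627 and 60210471. The gene-level counts join the products of these starts, so SREBP-1a and SREBP-1c are not separated. Each line gives the 250 bases before a start, from RefSeq (GRCm38.p6), 5′ to 3′, with capitals marking CCAAT on either strand, the box that the factor NF-Y reads.
Srebf1, chr11:60222582-60222831, minus strand: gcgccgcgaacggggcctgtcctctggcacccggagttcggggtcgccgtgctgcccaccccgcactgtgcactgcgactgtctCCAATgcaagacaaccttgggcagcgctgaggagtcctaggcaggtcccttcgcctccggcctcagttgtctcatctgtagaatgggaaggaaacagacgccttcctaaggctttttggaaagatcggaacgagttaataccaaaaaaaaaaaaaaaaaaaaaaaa
Srebf1, chr11:60220628-60220877, minus strand: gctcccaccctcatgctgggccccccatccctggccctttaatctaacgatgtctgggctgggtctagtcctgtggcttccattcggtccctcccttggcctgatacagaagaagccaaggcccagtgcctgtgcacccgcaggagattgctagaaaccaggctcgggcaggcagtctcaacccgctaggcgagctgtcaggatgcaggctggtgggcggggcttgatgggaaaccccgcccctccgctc
Srebf1, chr11:60210472-60210721, minus strand: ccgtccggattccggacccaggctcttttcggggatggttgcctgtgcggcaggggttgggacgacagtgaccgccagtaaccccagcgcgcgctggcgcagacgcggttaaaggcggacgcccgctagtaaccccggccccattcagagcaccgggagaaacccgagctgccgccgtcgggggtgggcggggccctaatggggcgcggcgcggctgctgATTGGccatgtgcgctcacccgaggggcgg
Fasn, chr11:120824548-120824797, minus strand: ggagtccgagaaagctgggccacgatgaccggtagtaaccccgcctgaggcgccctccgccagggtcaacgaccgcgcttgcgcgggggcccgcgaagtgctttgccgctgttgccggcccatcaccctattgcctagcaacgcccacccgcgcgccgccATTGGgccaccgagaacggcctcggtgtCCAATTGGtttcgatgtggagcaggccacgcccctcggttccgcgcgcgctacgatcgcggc

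The first and the last of the Srebf1 windows hold 1 CCAAT each and the middle window holds 0, while the Fasn window holds 3, of which 2 overlap. Windows were found for 28 of the 36 genes (37 windows), and 45.9% of these held CCAAT, beside 33.8% of all 32851 windows in the same reference. Those without a window were Scd1, Scd2, Fads1, Elovl3, Gpat4, Agpat5, Dgat1 and Dgat2. CACGTG, the E-box, was in 8.1% of the genes' windows and 6.0% of all. TCACNCCAC, a spelling of the sterol regulatory element, was in 1 window, 1 of those of Mlxipl (2.7%, against 1.1% of all). These matches describe the letters and are not binding sites.

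Brown fat RNA was rich in these transcripts. The 36 genes together took 8.12% of the scaled counts in WT, and Scd1, the main stearoyl-CoA desaturase, and Fasn made up 75.3% of that sum over all libraries. Levels per kilobase of exon allow genes to be compared only as far as the annotated lengths match the transcripts present. On this scale Scd1 held 7391 ± 1315 CPM per kb (SD, n = 3) in WT and Fasn 2260 ± 314 CPM per kb. Thrsp followed with 1501 ± 235 CPM per kb. Next came Agpat2, the acyltransferase that makes phosphatidic acid, with 790 ± 70.8 CPM per kb, and Dgat2, which closes the triglyceride, with 757 ± 35.6 CPM per kb, and the WT libraries of these 2 overlapped.

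The levels fell into an abundant and a sparse set. In WT, 25 members lay at or above 34.9 CPM per kb (Acss2), and the other 11 lay at or below 6.92 CPM per kb (Mogat1). The sparse set holds the 3 front-end desaturases Fads1, Fads2 and Fads3, Elovl1 and Elovl7, and the esterification genes Mogat1, Gpat3, Agpat4, Agpat5, Lpin2 and Lpin3. Elovl7 had 2 to 6 counts per library and was the 1 member that failed the filter on low counts. Of the 35 neighbouring pairs in the WT order, 22 overlapped in their libraries, so the fine order is not settled.

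**Figure D1:**
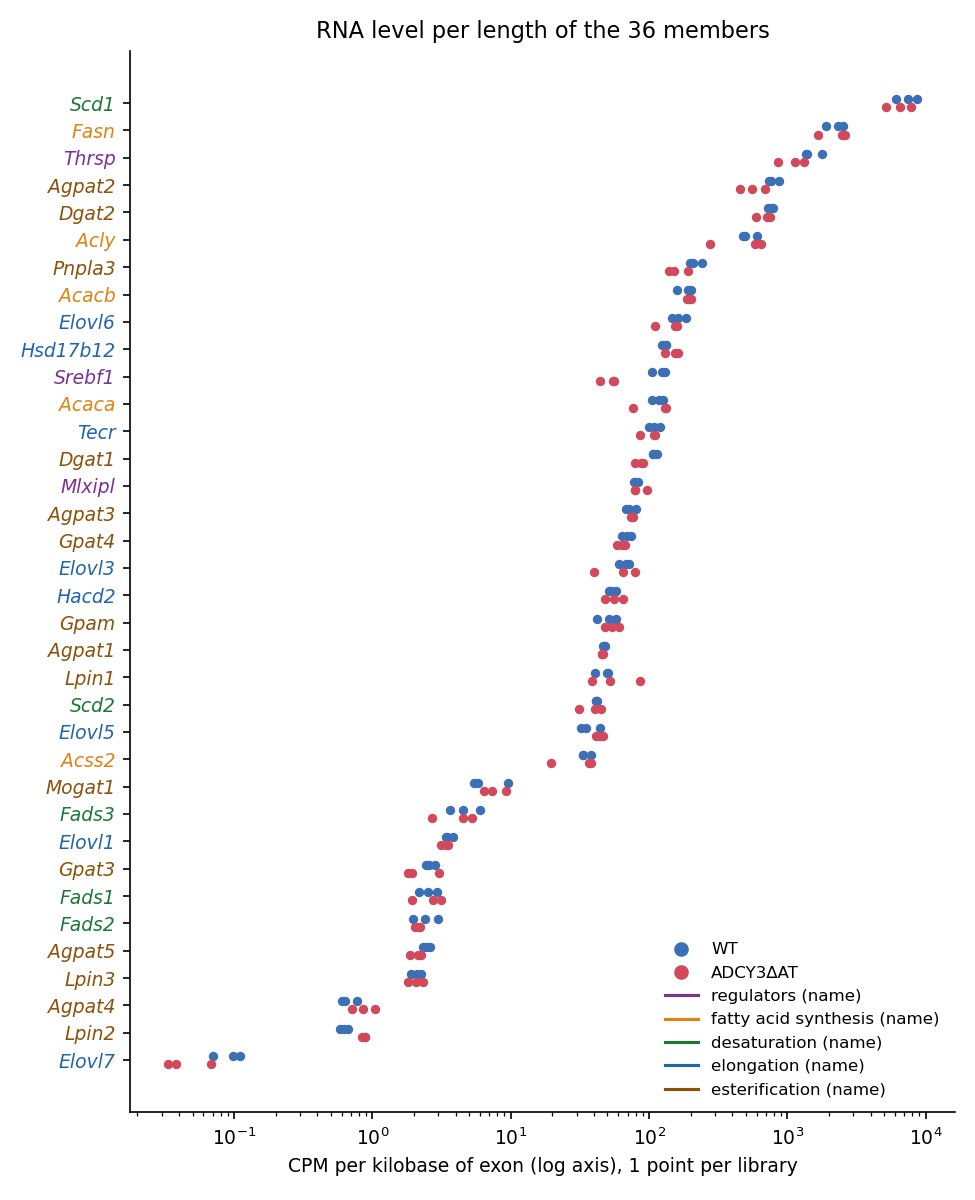
RNA level of each of the 36 genes in CPM per kilobase of exon on a log axis, 1 point per library, blue for WT and red for ADCY3∆AT, with gene names coloured by role and ordered by the WT mean. Scd1 and Fasn stand at the top, 11 genes lie at or below 6.92 CPM per kb in WT, and Srebf1 is displaced to the left in ADCY3∆AT.

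Within enzyme families 1 member usually carried most of the RNA per length. Scd1 took 99.4 ± 0.0993% (SD, n = 3) of the Scd1 and Scd2 sum in WT and 99.4 ± 0.210% in ADCY3∆AT. Lpin1 took 94.5 ± 0.738% of the 3 lipins in WT, and Agpat2 86.5 ± 0.623% of the 5 AGPAT genes. Among the elongases, Elovl6, which extends palmitate, took 60.4 ± 4.57% in WT, and Elovl3, an elongase typical of brown fat, took 24.6 ± 1.95%. Acetyl-CoA carboxylase was more even, with 61.3 ± 1.25% from Acacb, the form at mitochondria, and 38.7 ± 1.25% from Acaca, the cytosolic form. In CPM the order was the reverse, with 1774 ± 204 for Acacb and 1982 ± 184 for Acaca in WT. The shares rest on annotated exon lengths of 9632 bases for Acacb and 17074 for Acaca, so the order of these forms is not settled. The step onto glycerol 3-phosphate was shared by Gpat4 (56.6 ± 5.03%) and Gpam (41.2 ± 4.95%). Close relatives such as Scd1 and Scd2 can share reads, so the division of estimated counts between them is uncertain.

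Of the regulators, Srebf1 fell in ADCY3∆AT while Mlxipl and Thrsp did not pass the test. In the order of replicates 1, 2 and 3, which is kept below, Srebf1 was at 736, 596 and 702 CPM in WT and at 248, 313 and 310.1 CPM in ADCY3∆AT. The lowest WT library was well above the highest knockout library. On the log2 scale the change was -1.22 with an SE of 0.11 and a 95% interval from -1.49 to -0.96, a 2.34-fold lower level (edgeR quasi-likelihood test, adjusted p = 0.00235). A two-sided exact permutation test of the 6 values gave p = 0.1, the smallest that 3 libraries against 3 allow. Its call was kept in each of the 6 fits without 1 library (log2 from -1.31 to -1.11). Without WT replicate 3, which held the most muscle marker RNA, the value was -1.20 (edgeR adjusted p = 0.0161). Exons of Srebf1 overlap 109 bases of Rai1 on the other strand, and the sources used here do not say whether counting used the strand.

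Mlxipl, on chromosome 5, did not pass the test. RefSeq places transcription starts in it at positions 135089890 and 135106891, and the gene-level counts join their products. It held 435, 459 and 432 CPM in WT and 435, 532 and 439 CPM in ADCY3∆AT, with overlapping groups. The log2 change of Mlxipl was 0.09, with a 95% interval from -0.12 to 0.29 (edgeR adjusted p = 0.616). Per kilobase, Srebf1 made up 60.0 ± 3.44% (SD, n = 3) of the Srebf1 and Mlxipl sum in WT and 37.8 ± 2.77% in ADCY3∆AT. The more abundant of the pair was thus Srebf1 in each WT library and Mlxipl in each knockout library.

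Thrsp held 3015, 2963 and 3878 CPM in WT and 2498, 2882 and 1869 CPM in ADCY3∆AT. The groups did not overlap, but the gap between WT replicate 2 and ADCY3∆AT replicate 2 was small beside the spread within each genotype. The log2 change of Thrsp was -0.44, with a 95% interval from -0.82 to -0.07 (edgeR adjusted p = 0.160). Without 1 library it ran from -0.59 (ADCY3∆AT replicate 2 left out) to -0.29 (ADCY3∆AT replicate 3 left out). It was -0.31 without WT replicate 3.

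**Figure D2:**
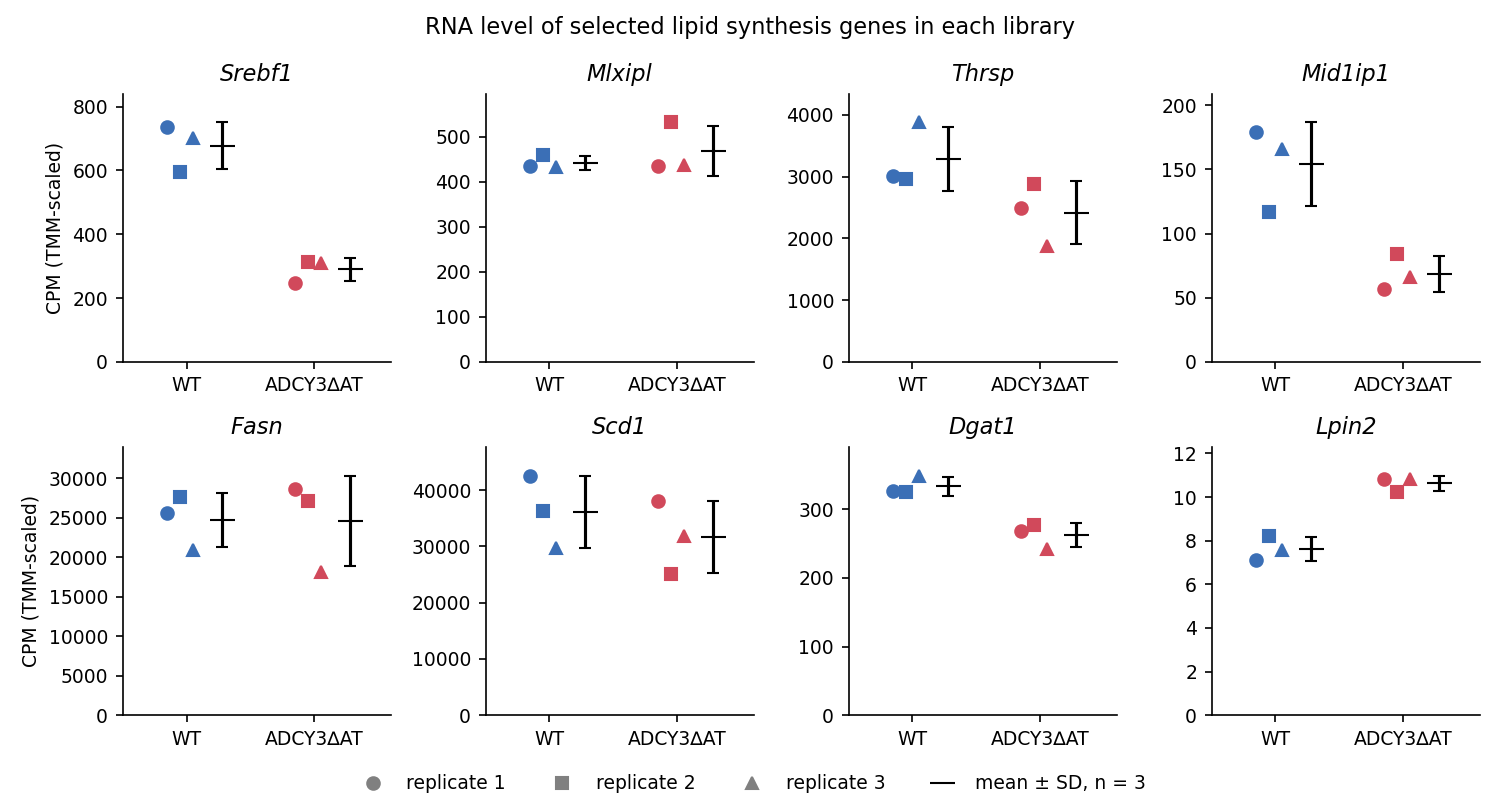
CPM of 8 genes in each library, with a symbol for each replicate number, blue for WT and red for ADCY3∆AT, and the mean ± SD (n = 3) in black; every axis starts at 0. Srebf1, Mid1ip1 and Dgat1 are lower in all 3 ADCY3∆AT libraries. Thrsp lies below WT and Lpin2 above WT in all 3, both without passing the test. The groups of Fasn, Scd1 and Mlxipl overlap.

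Across all 35 tested members, 2 were called, both lower in ADCY3∆AT (Srebf1 and Dgat1), and 0 higher. That is 5.71% of the members, beside 4.30% of the 14332 genes tested in all (616 calls), and 1.67% of all genes were called lower (239) and 2.63% higher (377). With upper-quartile factors as the scale the calls over all genes split into 282 higher and 274 lower, with the same 2 members called. At an unadjusted p under 0.05 there were 8 of 35 members (22.9%), against 22.6% of all genes. Libraries did not overlap between genotypes for 7 members (20.0%), 6 lower and 1 higher, against 29.0% of all genes, 13.9% lower and 15.1% higher. As a group the members were thus called about as often as genes at large. The median log2 fold change was -0.09 over the members and -0.01 over all tested genes, and 23 of 35 members were negative (65.7%, against 51.1% of all). Without ADCY3∆AT replicate 3, 14 members were negative and 21 positive (median 0.04).

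The 32 tested enzymes did not follow Srebf1 in size. All 34 other tested members had a 95% interval above -0.96, the upper bound of the Srebf1 interval, and the lowest bound among them was -0.82 (Thrsp). The difference between Srebf1 and each member was not itself tested.

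**Figure D3:**
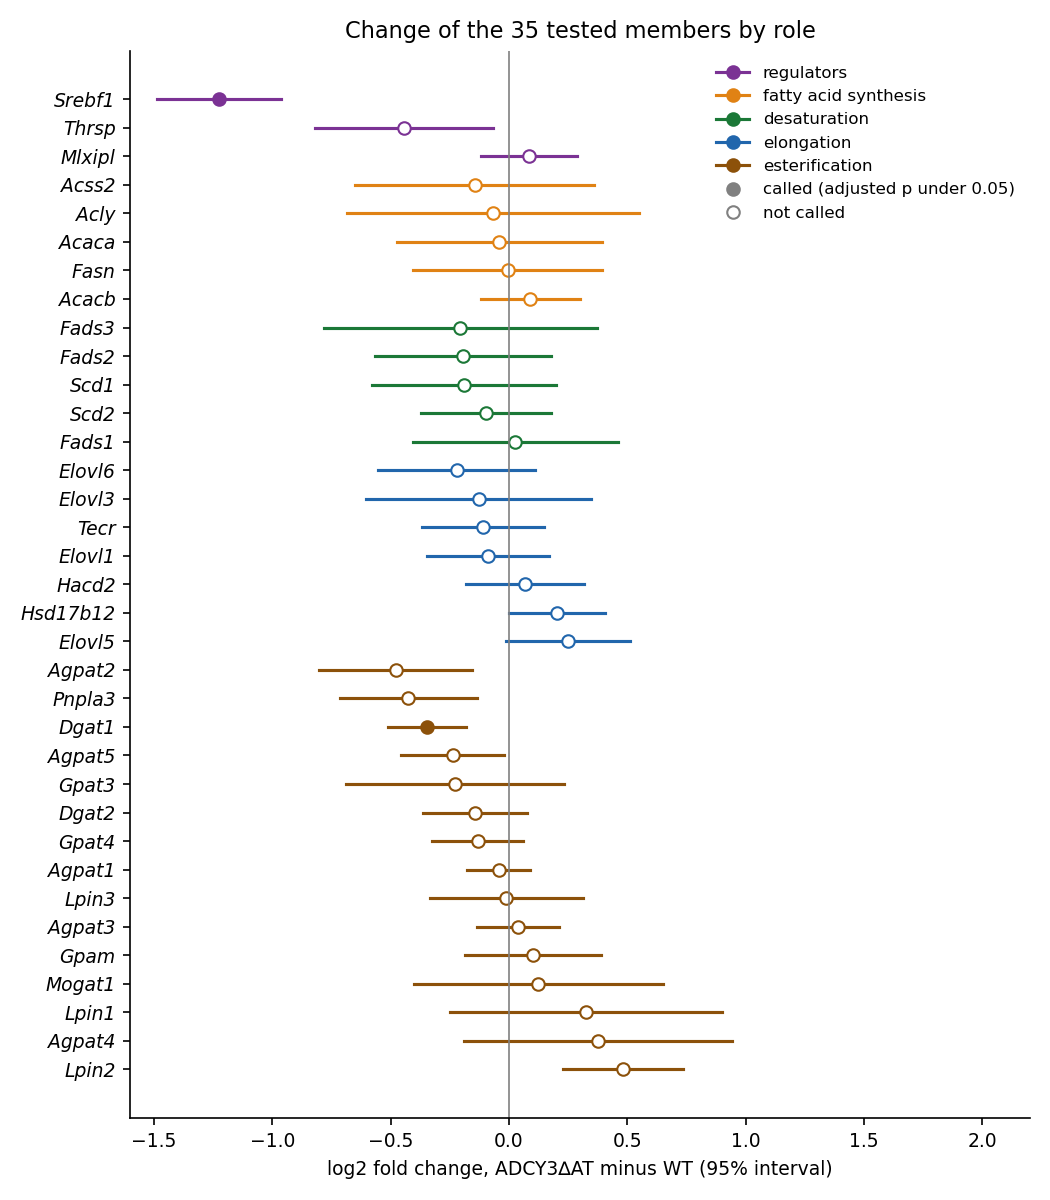
Log2 fold change (ADCY3∆AT minus WT) with its 95% interval for the 35 tested members, grouped by role and coloured by it; filled points passed the edgeR test at an adjusted p under 0.05. Srebf1 stands alone at -1.22, and the other intervals lie above its upper bound.

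Calls were 0 of 5 for the enzymes that make palmitate, with limma-voom and DESeq2 as with edgeR, and 0 reached an unadjusted p under 0.05. Fasn held 25612, 27652 and 20948 CPM in WT and 28679, 27122 and 18104 CPM in ADCY3∆AT. The knockout libraries included both the highest and the lowest value of the 6. The 95% interval of the log2 fold change, -0.41 to 0.39, allows a level from 0.754 to 1.31 times that of WT (edgeR adjusted p = 0.989). Acly held 2776 ± 351 CPM (SD, n = 3) in WT and 2649 ± 1044 CPM in ADCY3∆AT, and Acaca 1982 ± 184 CPM in WT and 1927 ± 533 CPM in ADCY3∆AT. Acacb had a log2 fold change of 0.09 and Acss2 of -0.14. Among the knockout libraries, replicate 1 had the least Srebf1 and the most Fasn. Replicates 2 and 3 had 313 and 310.1 CPM of Srebf1, with 27122 and 18104 CPM of Fasn. A relation between these genes was not tested.

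For the 5 desaturases the same 3 tools gave 0 calls, and 0 reached an unadjusted p under 0.05. Scd1 held 42504, 36329 and 29644 CPM in WT and 38017, 25140.0 and 31911 CPM in ADCY3∆AT. The spread within each genotype was larger than the difference between the means (log2 change of -0.19 within a 95% interval from -0.58 to 0.20, edgeR adjusted p = 0.554). Scd2 held 227 ± 2.87 CPM (SD, n = 3) in WT and 212 ± 37.8 CPM in ADCY3∆AT. Fads1 and Fads2, which make polyunsaturated fatty acids, held 12.2 ± 1.84 and 8.06 ± 1.62 CPM in WT, with log2 fold changes of 0.03 (-0.0137 with upper-quartile factors and -0.0141 with limma-voom) and -0.19. That of Fads3 was -0.21.

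Of the 7 elongation genes tested, 0 were called by any of these tools, and 1 reached an unadjusted p under 0.05. That gene, Hsd17b12, encodes the ketoacyl-CoA reductase of the elongation cycle. It held 317, 316 and 298 CPM in WT and 369.8, 391 and 313 CPM in ADCY3∆AT. Replicate 3 of the knockout fell within the WT range (log2 change of 0.20, edgeR adjusted p = 0.221). Elovl6, the elongase with the highest level, held 1182, 1049 and 941 CPM in WT and 986, 1026 and 708 CPM in ADCY3∆AT, and the groups overlapped (log2 -0.22, edgeR adjusted p = 0.405). Elovl5, which extends polyunsaturated chains, was at 0.25 (edgeR adjusted p = 0.244) and Elovl3 at -0.13 as log2 fold changes. Elovl1, Tecr and Hacd2 lay between -0.11 and 0.07 on the same log2 scale.

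Esterification was the 1 enzyme group with a call, 1 of 15 genes (6.67%), against 4.30% of all tested genes. Dgat1, which adds the last acyl chain in the endoplasmic reticulum, fell, while Dgat2, which does the same step and is the more abundant per length, did not pass the test. Dgat1, on chromosome 15 from 76502015 to 76511953 (minus strand, GRCm38), held 326, 325 and 349 CPM in WT and 268, 276 and 243 CPM in ADCY3∆AT. The groups did not overlap. The log2 change of Dgat1 was -0.35 with an SE of 0.07, a 1.27-fold lower level (edgeR adjusted p = 0.0391), and the call ended without any 1 library (log2 from -0.38 to -0.29), in fits that have 1 library fewer.

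Dgat2 drew the most reads of the esterification genes, with 2348, 2434 and 2216 CPM in WT and 1828, 2307 and 2202 CPM in ADCY3∆AT. Its groups overlapped (log2 -0.14, edgeR adjusted p = 0.415). Dgat1 made up 12.6 ± 0.970% (SD, n = 3) of both per length in WT and 11.2 ± 1.49% in ADCY3∆AT.

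A further 4 esterification genes had an unadjusted p under 0.05 without passing the adjusted test, and none of them overlapped between genotypes. With Dgat1 they made 5 of 15 genes (33.3%) at an unadjusted p under 0.05, against 22.6% of all tested genes. The same 5 were those that did not overlap (33.3%, against 29.0% of all). Agpat2 held 1574, 1855 and 1618 CPM in WT and 1177, 1469 and 975 CPM in ADCY3∆AT (log2 -0.48, edgeR adjusted p = 0.0965). DESeq2 called it (adjusted p = 0.0115), as did edgeR without ADCY3∆AT replicate 2 (log2 -0.64). Its exons overlap 64 bases of Egfl7 on the other strand. Pnpla3, which encodes a lipid droplet protein, held 374, 323 and 305 CPM in WT and 235, 295 and 216 CPM in ADCY3∆AT (log2 -0.43, edgeR adjusted p = 0.0974, DESeq2 adjusted p = 0.0201).

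Agpat5, a relative of Agpat2, held 26.2, 25.0 and 27.9 CPM in WT and 20.1, 22.8 and 24.2 CPM in ADCY3∆AT (log2 -0.24, edgeR adjusted p = 0.188). The gap between the nearest libraries of the genotypes was smaller than the SD within either. Lpin2, a phosphatidic acid phosphatase, was the 1 member whose libraries were all higher in ADCY3∆AT. It held 7.12, 8.20 and 7.55 CPM in WT and 10.8, 10.2 and 10.8 CPM in ADCY3∆AT, from 109 to 214 counts per library (log2 0.48, 95% interval 0.23 to 0.74, edgeR adjusted p = 0.0506). Its values stood just outside the threshold, and with library size alone as the scale it was called (adjusted p = 0.0491).

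Its relative Lpin1, the main lipin here, was high in a single library. It held 477, 489 and 395 CPM in WT and 830.4, 502 and 375 CPM in ADCY3∆AT, and the log2 fold change of 0.33 was -0.04 without ADCY3∆AT replicate 1. Of the other genes of this group, Gpam, which opens glycerolipid synthesis at mitochondria, had a log2 fold change of 0.10, Gpat4 of -0.13 and Gpat3 of -0.23. Agpat1 and Agpat3 were at -0.04 and 0.04, Agpat4 at 0.37 from 22 to 51 counts per library, Mogat1 at 0.12 and Lpin3 at -0.01, all on the log2 scale and none called.

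Many of the enzymes before esterification were low in the same knockout library, a pattern seen in the data and described without a test. ADCY3∆AT replicate 3 was the lowest of its genotype for 24 of 35 members, beside 32.5% of all tested genes, and for 5 of 5 palmitate enzymes, 4 of 5 desaturases and 6 of 7 elongation genes. It was the lowest for 8 of 15 esterification genes and 1 of 3 regulators. It lay more than 0.3 below its genotype mean, on the log2(CPM + 0.5) scale, for 11 members, and the other 5 libraries did so for 0 or 1 member each. Acly was 3057, 3428 and 1463 CPM in the 3 knockout libraries, and Acss2 was 389, 374 and 199 CPM. Elovl3 was 127, 156 and 79.5 CPM. The pattern was not confined to the members. Of the 9 genes that supply citrate and NADPH, only Cs and Pgls were not lowest in replicate 3 among the knockout libraries. Slc25a1 was 980, 1192 and 519 CPM in replicates 1, 2 and 3, and Me1 was 1025, 829 and 414 CPM. Srebf1 was not low in ADCY3∆AT replicate 3, with 310.1 CPM against 248 and 313 CPM in replicates 1 and 2.

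The spread was larger in ADCY3∆AT than in WT for 26 of 35 members by coefficient of variation (74.3%), against 49.9% of all tested genes. The low values of ADCY3∆AT replicate 3 enter this spread, and their part in it was not tested. For Acly the coefficient was 12.6% in WT and 39.4% in ADCY3∆AT, and for Scd2 1.27% in WT and 17.8% in ADCY3∆AT. The sum of the white adipocyte markers was also lowest in ADCY3∆AT replicate 3 (32.2 CPM, against 78.0 and 61.1 CPM in replicates 1 and 2), with Retn, Nnat and Slc7a10 lowest there. Lep went the other way, at 7.49, 4.98 and 11.4 CPM in replicates 1, 2 and 3, as did Hoxc9, which was at most 0.253 CPM. Markers of adipocytes of any kind summed in replicate 3 to 10779 CPM, against 11443 and 11273 CPM. Those of macrophages and lymphocytes summed to 28.0, 52.5 and 65.0 CPM in replicates 1, 2 and 3. The part of any of these lists in the pattern was not tested. Without ADCY3∆AT replicate 3 the log2 fold changes turned positive for Acly (0.23), Acaca (0.17), Acss2 (0.11) and Fasn (0.18), and 0 of them was called.

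**Figure D4:**
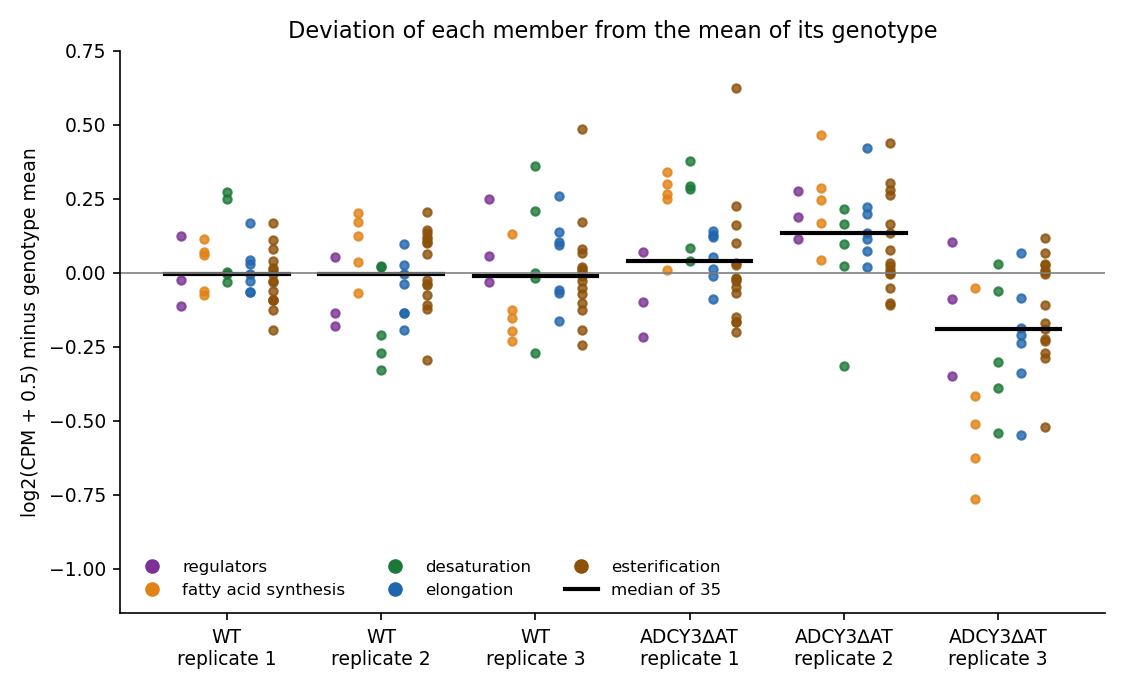
For each of the 35 tested members, log2(CPM + 0.5) in a library minus the mean of its genotype, 1 point per gene, coloured by role; black bars mark the median of the 35. The medians of the WT libraries lie near 0, ADCY3∆AT replicate 2 is at 0.13 and replicate 3 at -0.19.

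Partner genes of the pathway showed 1 further fall. Of 11 genes listed for SREBP processing, its partners and liver X receptors, 1 was called, lower, and 10 were not (9.09% called, against 4.30% of all tested genes). At an unadjusted p under 0.05 there were 2 (18.2%, against 22.6% of all). Libraries did not overlap between genotypes for 4 (36.4%, against 29.0% of all). The called gene, Mid1ip1, encodes a relative of Spot 14 that acts on acetyl-CoA carboxylase. It held 179, 117 and 166 CPM in WT and 56.5, 83.8 and 65.8 CPM in ADCY3∆AT, with groups that did not overlap. The log2 change of Mid1ip1 was -1.17 with an SE of 0.18, a 2.24-fold lower level (edgeR adjusted p = 0.0151). Leaving out WT replicate 1 (-1.04), WT replicate 3 (-1.11) or ADCY3∆AT replicate 3 (-1.13) ended the call.

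The genes that handle the SREBP precursor did not pass the test, and those named here were picked for their roles after their values were seen. Scap, the escort of the precursor, had a log2 fold change of 0.14, Insig1, which holds it back, of 0.23 and Insig2 of -0.01. The proteases Mbtps1 and Mbtps2 were at 0.05 and 0.20. Srebf2, which encodes the relative that drives cholesterol synthesis, was at 0.08 (95% interval -0.12 to 0.27, edgeR adjusted p = 0.641). Per kilobase, Srebf1 made up 94.6 ± 0.840% (SD, n = 3) of the Srebf1 and Srebf2 sum in WT and 87.7 ± 1.54% in ADCY3∆AT. The liver X receptors Nr1h3 and Nr1h2, which drive Srebf1 in other tissues, were at -0.09 and 0.16. Neither overlapped between genotypes, and Nr1h2 had an unadjusted p under 0.05 (95% interval 0.0016 to 0.3261, edgeR adjusted p = 0.218).

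Genes that supply citrate and NADPH gave 0 calls of 9 by each of the 3 tools and 2 with an unadjusted p under 0.05. Those were Pgls, of the pentose phosphate pathway (log2 -0.23, edgeR adjusted p = 0.123), and Idh1, an isocitrate dehydrogenase (-0.18, adjusted p = 0.184). Fatty acid activation gave 0 calls of 7 by each tool and 0 with an unadjusted p under 0.05, the smallest p being those of Slc27a2 (0.10, edgeR adjusted p = 0.459) and Acsl3 (0.24, adjusted p = 0.498). Of 10 tested relatives of the enzyme families edgeR and limma-voom called 0 and DESeq2 called 1, and 2 reached an unadjusted p under 0.05. Lclat1, an acyltransferase of lysolipids, was at -0.40 (edgeR adjusted p = 0.0585, DESeq2 adjusted p = 0.0436), and Mcat, of mitochondrial fatty acid synthesis, at -0.25 (edgeR adjusted p = 0.0784).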

How the data were processed

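The deposited table holds estimated counts for 54385 rows in 6 library columns, and 0 library columns were left out. Of the values above 0, 38.0% were whole within 0.0005. GRCm38, StringTie, Salmon and edgeR are named, without versions or roles, in the submitters' processing notes. Per the labels' protocols, paired-end libraries came from a NEBNext Ultra II kit. A column was given to the sample whose description holds its number, and GENCODE M21 supplied symbols for 54131 rows.

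Counts were rounded, and filterByExpr (minimum count 10, minimum total 15) kept 14332 genes. After TMM scaling (trimmed mean), edgeR 4.0.16 under R 4.3.3 compared ADCY3∆AT with WT by its quasi-likelihood F test, two-sided, without covariates. Genes were called where the Benjamini-Hochberg adjusted p was under 0.05. SE and 95% intervals were derived from the F statistic. Single genes also had an exact permutation test of log2(CPM + 0.5). CPM per kb divides by the union of annotated exons. Libraries of 1 genotype differed beyond sampling noise (chi-square divided by genes, 6.34 to 27.2). Limits at 0 rest on 3 counts and cover counting error only.

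Members, lists and the rule for named genes were chosen with earlier results of these data known. The rule gives library values for regulators, called members, members with an unadjusted p under 0.05 and the member with the most CPM in each role. Library values of Lpin1, Acly, Acss2, Elovl3, Slc25a1 and Me1, and the markers Ppargc1a, Nnat and Lep, lie outside it and were picked after their values were seen. Markers of macrophages and lymphocytes (6 tested) and endothelium (4 tested) had 0 calls by edgeR, DESeq2 1.42.0 or limma-voom (limma 3.58.1), with 0 and 2 at an unadjusted p under 0.05. Epithelial markers were too low to test. Alternatives were those tools, other scalings, filters and thresholds, a replicate block and leaving out each library.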

Additional observations from a re-analysis of the deposited data

How the results depend on the processing

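Srebf1 was called lower in each alternative tried, with log2 fold changes from -1.31 to -1.11. Calls over all genes (377 higher, 239 lower) were 598 and 395 with DESeq2, 1204 and 747 with no filter on low counts, 810 and 565 at an adjusted p under 0.10, and 193 and 131 with the replicate block. Without 1 library they ran from 84 to 301 higher and from 78 to 160 lower. Among members, 4 were lower with DESeq2 (3 of esterification), 5 lower and 3 higher with no filter (regulators 2 lower, elongation 1 higher, esterification 3 lower and 2 higher), and 4 lower and 1 higher at 0.10 (esterification 3 and 1). Lpin2 was the 1 member called higher with library size alone, and again with the filter of CPM above 1. With the replicate block 1 member was lower, 0 of esterification and 0 of SREBP processing; Dgat1 was at -0.35 and Mid1ip1 at -1.16, neither called. Same-numbered libraries did not deviate together (correlations -0.01, 0.02 and -0.06), so the numbers are not treated as pairs. Without 1 library, members called lower ran from 1 to 2, in esterification from 0 to 1 and in the SREBP processing list from 0 to 1, the 1 being Mid1ip1. With no filter SREBP processing had 1 higher and citrate and NADPH supply 1 lower. Enzyme relatives had 1 lower with upper-quartile factors, DESeq2 or no filter, and 2 at 0.10. Signs turned for Fasn (0.0165) and Lpin3 (0.0121) with no filter and for Fads1 with upper-quartile factors (-0.0137) and limma-voom (-0.0141), and the cause was not tested. None of the genes whose sign turned without 1 library was called in the full set; their log2 fold changes ran for Mlxipl from -0.0134 to 0.1449, Acly from -0.2943 to 0.2258, Acss2 from -0.2986 to 0.1091, Acaca from -0.1588 to 0.1743, Acacb from -0.0013 to 0.1557, Fasn from -0.1199 to 0.1752, Scd2 from -0.2062 to 0.0401, Fads1 from -0.1307 to 0.2098, Fads3 from -0.4095 to 0.0332, Elovl3 from -0.3511 to 0.1022, Tecr from -0.1734 to 6e-04, Hacd2 from -0.0491 to 0.1676, Gpam from -0.011 to 0.2131, Agpat3 from -0.0103 to 0.111, Lpin1 from -0.0413 to 0.5549, Lpin3 from -0.0941 to 0.0782 and Mogat1 from -0.0259 to 0.4321. Depth limits Elovl7 (2 to 6 counts per library) and Agpat4 (22 to 51) most among the members.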
